A study of Rattus norvegicus with 10 samples.

Results

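The miR-200 family was followed in small RNA libraries of the subcutaneous tissue of rats with collagen-induced arthritis (CIA). Its members were taken by name, as the main arms rno-miR-200a-3p, rno-miR-200b-3p, rno-miR-200c-3p, rno-miR-141-3p and rno-miR-429 (written below without the rat prefix) together with the other arms of miR-200a, miR-200b, miR-200c and miR-141. These 5 main arms and 4 other arms are among the 723 mature miRNAs that the count files list. All animals were female Wistar rats with CIA, an arthritis raised by immunization with collagen, and no healthy group was among the libraries. The 10 libraries formed 5 groups of 2. CIA_B was sampled before any therapy. MS_E and MS_A were sampled 1 h and 34 days into mechanical stimulation, called acupuncture in the labels, in which a thin needle was inserted beside the lower spine and below the knee and rotated. PLA_E and PLA_A were sampled at the same times under placebo, a saline injection into the peritoneum, a site apart from the stimulated points. The excised tissue surrounded the stimulated points and included subcutaneous muscle. The labels name it muscle, and a text on the series also mentions blood. Neither the age of the animals nor how many animals gave each library is stated in the sources used here.

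miRNAs are short RNAs that repress messenger RNAs, and they find their targets mainly by the seed, bases 2 to 8 from the 5′ end. The miR-200 family is best known from epithelia, where it holds down ZEB1 and ZEB2, repressors of the adhesion protein E-cadherin. A loss of the family goes with the passage of epithelial cells to a mesenchymal state, and ZEB1 in turn represses the genes of the family. Muscle fibres and fibroblasts, the main cells of subcutaneous tissue and muscle, make little of it. The members come from 2 gene clusters, that of miR-200b, miR-200a and miR-429 and that of miR-200c and miR-141, and fall by seed into 2 groups that cut across the clusters. miR-200b, miR-200c and miR-429 share one seed, and miR-200a and miR-141 share the other.

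The 3p arms of miR-200c and miR-141 show that difference and are a pair whose proportions differed between libraries, so their sequences are given here with the seed in capitals. They are RefSeq sequences of the rat assembly GRCr8, 5′ to 3′, read on the minus strand of chromosome 4 at chr4:159209969-159209989 for miR-200c-3p and chr4:159209540-159209561 for miR-141-3p.
miR-200c-3p: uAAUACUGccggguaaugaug
miR-141-3p: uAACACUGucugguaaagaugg
Over the 21 positions that both have, counted from the 5′ end, they differed at 4, written as miR-200c-3p base, position and miR-141-3p base: U4C, C9U, G11U and U17A. Of these only U4C lies in the seed, so that 17 positions are shared.

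Both are cut from hairpins whose other strand gives the 5p arm. The hairpins of this cluster are shown as the source of both counted arms, with the 3p arm in capitals (GRCr8, minus strand, chr4:159209965-159210033 for Mir200c and chr4:159209525-159209618 for Mir141).
Mir200c: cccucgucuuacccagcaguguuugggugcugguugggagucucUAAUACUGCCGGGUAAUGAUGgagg
Mir141: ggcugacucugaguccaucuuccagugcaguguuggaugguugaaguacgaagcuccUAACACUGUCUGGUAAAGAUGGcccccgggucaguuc
The 2 hairpins span 509 bases with 0 annotated genes between them. The Mir200b, Mir200a and Mir429 hairpins span 1908 bases of chromosome 5, inside the annotated span of Ttll10 and LOC106182250. Of the 9 arms, 6 were matched by name in the sequence table. These coordinates are of GRCr8, whereas the reads were aligned by the authors to rn4 and miRBase, and the members were joined to them by name alone.

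All levels below are cpm, counts relative to the total of the library and its TMM factor from edgeR. The libraries held 1513799 (CIA_B replicate 1) to 8926170 (MS_E replicate 1) reads on miRNAs, and 3 reads corresponded to 2.60 cpm in the smallest and to 0.366 to 0.828 cpm in the other 9. The libraries of a group differed far beyond sampling noise. In each group miR-1-3p, a miRNA of striated muscle, stood at 80400 to 122962 cpm in 1 library and at 10115 to 15564 cpm in the other. The same library was the higher for miR-206-3p in 5 of 5 groups, but not for miR-133a-3p, also a muscle miRNA, which was higher in the library rich in miR-1-3p in only 3 of 5 groups, at 70505 to 128713 against 67920 to 139360 cpm. A further library stood apart. MS_E replicate 1 held 1895 cpm of the 6 markers of multiciliated epithelium (miR-34b, miR-34c and miR-449 arms) against at most 19.9 cpm in any other library. Calls of members that changed without this library are given beside each comparison. Whether the replicates of a group came from separate animals is not stated, so p-values measure only the spread between these libraries, which may be technical. With 2 libraries against 2 no exact permutation test can reach a p under 0.333.

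The family was scarce in this tissue, with 2704 reads over all 10 libraries, of which 2007, or 74.2%, lay in MS_E replicate 1. The summed level of the 5 members was 5.19 and 4.26 cpm in CIA_B replicates 1 and 2, 309.8 and 18.1 cpm in MS_E, 17.3 and 4.97 cpm in PLA_E, 8.78 and 15.5 cpm in MS_A, and 40.3 and 13.3 cpm in PLA_A. MS_E replicate 1 was thus 7.68 times above the next library, PLA_A replicate 1, while both CIA_B libraries were among the 3 lowest. By group the sum was 4.73 ± 0.656 cpm in CIA_B, 11.1 ± 8.71 in PLA_E, 12.1 ± 4.74 in MS_A, 26.8 ± 19.1 in PLA_A and 164 ± 206 in MS_E (SD, n = 2 each). In this order of means each group overlapped with the next, so that no neighbouring groups were set apart beyond their spread. CIA_B lay under MS_A, PLA_A and MS_E with no overlap.

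miR-141-3p was the most abundant member, with 1730 reads. Its level was 1.73 and 2.94 cpm in CIA_B, 220.0 and 3.43 cpm in MS_E, 5.23 and 3.03 cpm in PLA_E, 5.22 and 4.88 cpm in MS_A, and 26.6 and 7.66 cpm in PLA_A. MS_E replicate 1 alone was high, with the second highest value in PLA_A replicate 1, and the other MS_E library fell within the range of the PLA_E libraries. The 8 libraries after therapy lay above both of CIA_B, PLA_E replicate 2 by the least. In MS_E replicate 1 miR-141-3p ranked 83rd among the 723 miRNAs, and in MS_E replicate 2 it ranked 293rd.

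miR-200a-3p, which shares the seed of miR-141 but comes from the other cluster, was at 3.46 and 0.735 cpm in CIA_B, 27.9 and 7.03 cpm in MS_E, 5.23 and 0.828 cpm in PLA_E, 0.712 and 4.997 cpm in MS_A, and 3.24 and 2.37 cpm in PLA_A. Here both MS_E libraries were the highest of the 10, while the CIA_B libraries overlapped with those of the other 3 groups. In 4 of the 5 groups the library rich in miR-1-3p held more of it, MS_E being the exception.

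miR-200b-3p was at 0 and 0.147 cpm in CIA_B (0 and 1 read), 34.1 and 1.72 cpm in MS_E, 2.28 and 0.552 cpm in PLA_E, 0.949 and 1.71 cpm in MS_A, and 1.25 and 1.28 cpm in PLA_A. Apart from MS_E replicate 1, every library after therapy held only a few reads of it, from 2 to 17, yet all 8 were above both CIA_B libraries. The 0 reads in CIA_B replicate 1 allow a level of up to 2.60 cpm, above every value but that of MS_E replicate 1, so a difference from that library was otherwise not detectable at its depth.

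miR-200c-3p had the same 0 and 0.147 cpm in CIA_B, with 14.7 and 3.90 cpm in MS_E, 4.15 and 0 cpm in PLA_E, 1.42 and 3.17 cpm in MS_A, and 9.21 and 0.365 cpm in PLA_A. It was the member for which MS_E replicate 1 stood out least, at 1.59 times the next library. The PLA_E and PLA_A libraries each split into a high and a low value, and PLA_E overlapped with CIA_B.

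miR-429 was at 0 and 0.294 cpm in CIA_B, 13.1 and 2.03 cpm in MS_E, 0.402 and 0.552 cpm in PLA_E, 0.474 and 0.731 cpm in MS_A, and 0 and 1.64 cpm in PLA_A. It reached 1 cpm in only 3 libraries, too few for the filter of at least 1 cpm in at least 5 libraries, and was not tested. Both MS_E libraries were the highest of the 10.

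**Figure D1:**
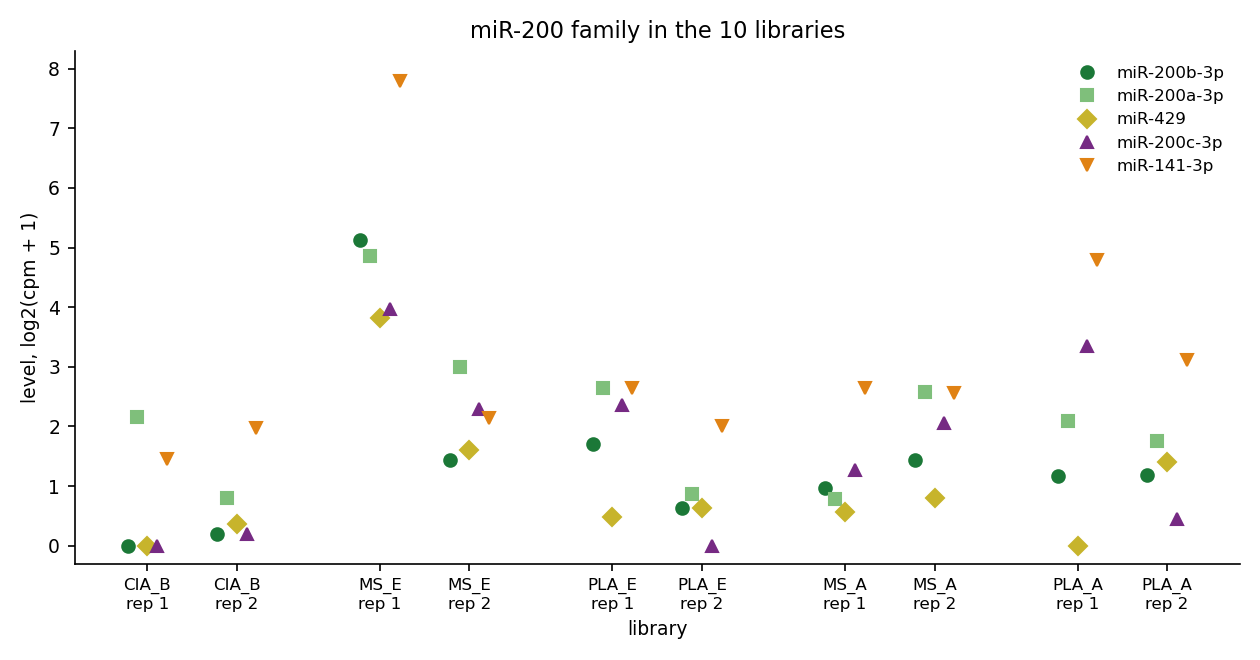
Level of the 5 main arms in each library, as log2(cpm + 1) on the vertical axis, with libraries by group on the horizontal axis and 1 marker per member. MS_E replicate 1 holds the highest value of every member, from 13.1 cpm for miR-429 to 220.0 cpm for miR-141-3p, and both CIA_B libraries are at or near 0 for miR-200b-3p, miR-200c-3p and miR-429.

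The other arms were nearly absent. miR-141-5p had 7 reads in MS_E replicate 1 and 1 in MS_A replicate 2, miR-200a-5p had 6 in MS_E replicate 1 and 1 in PLA_A replicate 2, miR-200b-5p had 2 in MS_E replicate 1 and 2 in PLA_E replicate 1, and miR-200c-5p had 0 in every library. In MS_E replicate 1, where the main arms were deep enough for a share, the 5p arm took 0.489% of the 1432 reads of both miR-141 arms, 3.21% of the 187 reads of miR-200a and 0.897% of the 223 reads of miR-200b. For miR-200c it took 0 of 95 reads, which allows a share of up to 3.16%. In that library the 3p arm was the main product of all 4 hairpins, and these shares carry counting error only.

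MS_E was compared with CIA_B for the early difference from the state before therapy. A member was called where it changed more than 2-fold with p under 0.05 before any adjustment, the rule the study used. The 4 tested members were called, all of them higher in MS_E, while 6.41% of the 359 miRNAs tested passed in either direction and 5.29% passed as higher. Of the members, miR-200b-3p and miR-200c-3p reached 1 cpm in 6 and 5 libraries, both MS_E libraries among them and none of CIA_B. They passed the filter only with the help of the MS_E libraries, which favours a call as higher. The fitted difference of miR-141-3p was 5.29 in log2 units (SE, the standard error of the fit, 1.61, with an adjusted p = 0.373 in edgeR). For miR-200a-3p the log2 fold change was 3.12 (SE 1.31, with an adjusted p = 0.609 in edgeR). miR-200b-3p and miR-200c-3p, each with 1 read over both CIA_B libraries, had an adjusted p = 0.373 and an adjusted p = 0.581 in edgeR. After adjustment none of the members and 0% of all miRNAs tested stayed under 0.05 in the quasi-likelihood test of edgeR, and before it 23 miRNAs were under 0.05. DESeq2 gave such an adjusted p to miR-141-3p (0.0028) and miR-200b-3p (0.0050), and to 2.23% of all miRNAs. limma-voom called 3 members, without miR-141-3p, and 5.29% of all miRNAs.

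For the members with at most 2 reads in CIA_B, the pooled reads of both libraries gave a ratio with an exact 95% interval that covers counting error only. The pooled level in MS_E was 143 times that in CIA_B for miR-200b-3p (25.5 to 5683), 74.1 times for miR-200c-3p (13.0 to 2951) and 30.3 times for miR-429 (8.16 to 253). Without MS_E replicate 1 these ratios were 13.7 (1.99 to 588), 31.1 (5.08 to 1275) and 8.07 (1.83 to 73.7). MS_E replicate 2 thus also exceeded the pooled CIA_B libraries in these members beyond counting error, a pool mostly of CIA_B replicate 2. In CIA_B replicate 1 alone 3 reads are 2.60 cpm, so the 1.72 cpm of miR-200b-3p and 2.03 cpm of miR-429 in MS_E replicate 2 were no detectable excess over it. The CIA_B reads of the 3 members all lay in CIA_B replicate 2. Without it the ratios of both MS_E libraries pooled had no upper limit and lower limits of 5.60, 2.87 and 2.34.

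The call for miR-141-3p did not outlast the removal of that library. Without MS_E replicate 1 only miR-200b-3p kept its call, when 4.46% of all miRNAs were called, and the log2 fold change was 0.33 for miR-141-3p (adjusted p = 0.957 in edgeR) and 1.82 for miR-200a-3p. Without CIA_B replicate 2 the calls were 2, for miR-141-3p and miR-200b-3p (4.46% of all miRNAs), and without CIA_B replicate 1 they were 3 (5.01%). Leaving out MS_E replicate 2 in place of replicate 1 kept 4 calls (8.91%) and gave miR-141-3p an adjusted p of 0.0071 and miR-200b-3p an adjusted p of 0.0094 in edgeR. The remaining MS_E library is then assumed to vary like the other groups. In ranges, both MS_E libraries lay above both CIA_B libraries for 5 of 5 members, as did 18.4% of the miRNAs tested, and this includes MS_E replicate 2. miR-429 is not among the miRNAs tested. For miR-200b-3p and miR-429, MS_E replicate 2 (1.72 and 2.03 cpm) lay under the 2.60 cpm that 3 reads make in CIA_B replicate 1. Its order against that library was thus not detectable for these members.

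Markers of other cells differed in the same comparison. The summed multiciliated markers ranged from 1.73 to 12.8 cpm in CIA_B and from 9.37 to 1895 cpm in MS_E. All 6 of them were highest in MS_E replicate 1. In it miR-34c-5p reached 1496 cpm and miR-449a-5p 258 cpm, while miR-449c-5p had reads in that library (14.2 cpm) and otherwise only in MS_A replicate 1 (0.237 cpm). Of the 6 epithelial markers 5 were highest in MS_E replicate 1, and miR-375-3p was at 81.2 cpm there, at 0 in CIA_B replicate 1 and at most at 8.97 cpm elsewhere. The summed epithelial markers, however, were 207 to 436 cpm in CIA_B and 176 to 565 cpm in MS_E, with overlap. The largest part of these sums was miR-182, at 135 and 335 cpm in CIA_B and 273 and 66.3 cpm in MS_E. It was the epithelial marker that was not highest in MS_E replicate 1. The part of all these markers in the levels of the miR-200 family was not tested. In a bulk tissue more cells of a type and more RNA per cell cannot be told apart.

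Against placebo at the same hour, the question was whether the stimulated tissue differed from tissue of injected animals. Of the 4 tested members, miR-141-3p and miR-200b-3p were called higher in MS_E than in PLA_E, when 3.90% of all miRNAs tested were called in either direction and 3.06% as higher. miR-141-3p was higher by 4.62 (log2 scale, SE 1.51) and miR-200b-3p by 3.30 (SE 1.23), both with an adjusted p of 0.832 in edgeR. miR-200a-3p and miR-200c-3p had log2 fold changes of 2.35 (SE 1.14) and 1.90 (SE 1.47), each also with an adjusted p of 0.832 in edgeR. DESeq2 gave miR-141-3p an adjusted p of 0.0177, as it did to 0.557% of all miRNAs at under 0.05, and edgeR to 0%.

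The members called were not those whose libraries were separated. miR-200a-3p and miR-429 were above PLA_E in both MS_E libraries, against a background of 16.4% of miRNAs, while the called miR-141-3p and miR-200b-3p overlapped, since MS_E replicate 2 was within the PLA_E range for both. Without MS_E replicate 1 no member was called (1.95% of all miRNAs), miR-200b-3p had a log2 fold change of 0.10 and miR-141-3p turned to -0.32. Without PLA_E replicate 2 the count was also 0 (3.34%), without PLA_E replicate 1 it was 3 (2.23%) but miR-141-3p was not among them, and without MS_E replicate 2 it was 3 (9.75%), with adjusted p = 0.0115 for miR-141-3p and 0.0368 for miR-200b-3p in edgeR. The pooled ratio of MS_E replicate 2 to PLA_E was 1.85 (1.19 to 2.89) for miR-200a-3p, 1.00 (0.431 to 2.22) for miR-200b-3p, 1.40 (0.790 to 2.44) for miR-200c-3p, 0.762 (0.439 to 1.28) for miR-141-3p and 4.50 (1.51 to 16.1) for miR-429. In that library miR-200a-3p and miR-429 alone exceeded placebo beyond counting error, an error that leaves out the variation between libraries. The summed multiciliated markers were 12.6 to 16.8 cpm in PLA_E.

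**Figure D2:**
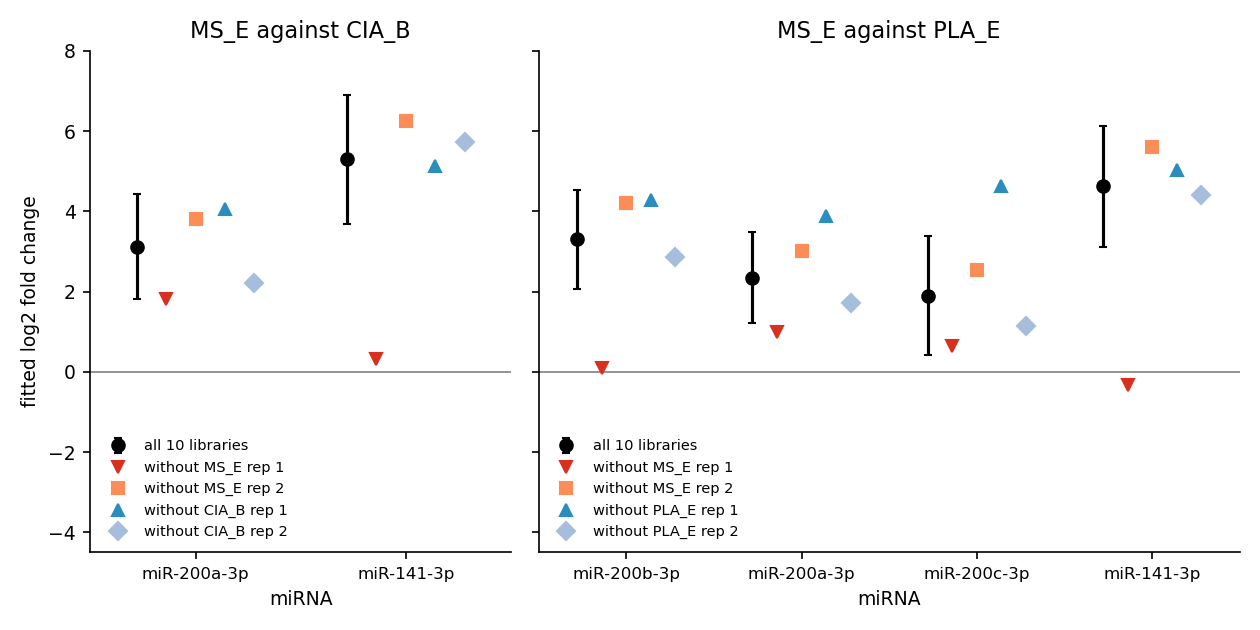
Fitted log2 fold change of tested members in MS_E against CIA_B (left) and against PLA_E (right) on the vertical axis, with all 10 libraries (black, bar for its SE) and with each library of the compared groups left out. miR-200b-3p and miR-200c-3p are not drawn on the left, where CIA_B held 1 read of each. Without MS_E replicate 1 the values of miR-141-3p are 0.33 and -0.32 in place of 5.29 and 4.62.

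The remaining groups were each compared with CIA_B, and these comparisons share its 2 libraries, so they are not independent. For PLA_E against CIA_B none of the 4 tested members was called (background 0.557%). The log2 fold change was 0.67 for miR-141-3p and 0.77 for miR-200a-3p (standard errors 1.45 and 1.31), and the adjusted p was 0.994 for each of the 4 in edgeR. The pooled ratios of miR-200b-3p and miR-200c-3p were 13.6 (2.17 to 566) and 22.2 (3.71 to 907). Both rested on PLA_E replicate 1, without which they were 4.39 (0.229 to 259) and 0 (0 to 85.6), with intervals that include 1. Without CIA_B replicate 2, which held the single control read of each, the lower limits were 0.486 and 0.825. The 2 groups did not overlap for miR-141-3p, miR-200b-3p and miR-429, against 11.7% of all miRNAs. For miR-200b-3p and miR-429, however, CIA_B replicate 1 had 0 reads, which allow up to 2.60 cpm, above every PLA_E value of both. The pooled ratio of miR-429, which was not among the miRNAs tested, was 1.79 (0.294 to 18.8). Without PLA_E replicate 2 there was 1 call, miR-200c-3p, when 2.51% of all miRNAs were called. Leaving out either MS_E library, which enters here only through the shared spread and scaling, also gave 1 call, miR-200b-3p (1.39% each).

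For MS_A against CIA_B none was called either (background 1.11%), with log2 fold changes of 0.92 for miR-141-3p and 0.69 for miR-200a-3p (SE 1.45 and 1.31, adjusted p = 0.994 for each in edgeR). miR-200b-3p and miR-200c-3p had pooled ratios of 11.5 (1.82 to 480) and 20.5 (3.42 to 835). Without MS_A replicate 2 they were 7.55 (0.747 to 372), an interval that includes 1, and 11.3 (1.37 to 521). Without CIA_B replicate 2 the lower limits were 0.409 and 0.761, so both intervals then included 1. For 4 of 5 members, all but miR-200a-3p, both MS_A libraries were above both of CIA_B, against 16.2% of all miRNAs. The MS_A values of miR-200b-3p and miR-429, and that of miR-200c-3p in MS_A replicate 1, lay under 2.60 cpm, however. That is the level of 3 reads in CIA_B replicate 1, so these differences from it were not detectable. The fold of miR-200a-3p was negative without MS_A replicate 2 (-0.93) and without CIA_B replicate 2 (-0.21). Without either MS_E library miR-200b-3p was called higher, when 1.67% of all miRNAs were called each time.

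For PLA_A against CIA_B the count of calls was again 0 (background 6.96%), although the log2 fold change of miR-141-3p was 2.61 (SE 1.48, with an adjusted p = 0.556 in edgeR) and miR-200c-3p had an adjusted p = 0.543 with a pooled ratio of 32.7 (5.53 to 1323). That ratio rested on PLA_A replicate 1, without which it was 2.90 (0.151 to 171), and its lower limit without CIA_B replicate 2 was 1.23. The pooled ratio of miR-200b-3p was 10.0 (1.49 to 430), and 10.2 (1.30 to 458) and 9.91 (1.11 to 469) without PLA_A replicate 1 and 2. Its lower limit without CIA_B replicate 2 was 0.338, so that interval included 1. miR-200a-3p had a value of 0.62 (adjusted p = 0.976 in edgeR). The groups did not overlap for miR-141-3p, miR-200b-3p and miR-200c-3p, against 20.9% of all miRNAs. Both PLA_A values of miR-200b-3p, and that of miR-200c-3p in PLA_A replicate 2, lay under the 2.60 cpm that 3 reads make in CIA_B replicate 1. The value of miR-141-3p was 1.46 without PLA_A replicate 1. Without PLA_A replicate 2 there was 1 call, again miR-200c-3p (7.52% of all miRNAs), as there was without PLA_E replicate 1 (8.36%) or PLA_E replicate 2 (7.52%). miR-141-3p and miR-200b-3p were called without MS_E replicate 1 (8.36%), and without MS_E replicate 2 miR-200c-3p was called with them (9.19%). The 5 leukocyte markers (both arms of miR-142, miR-150-5p, miR-223-3p and miR-146a-5p) summed to 14583 cpm in PLA_A replicate 1, the library with the highest miR-141-3p and miR-200c-3p after MS_E replicate 1, and to 2175 cpm in PLA_A replicate 2, against 1638 to 1648 cpm in CIA_B. Most of the sum in PLA_A replicate 1 was miR-142-5p (5854 cpm, against 551 in PLA_A replicate 2) and miR-150-5p (6220 against 527), while miR-223-3p was at 43.3 and 45.9 cpm. Of the 5, miR-142-3p, miR-142-5p and miR-150-5p were called higher in PLA_A than in CIA_B, as was the erythroid marker miR-144-3p. What part they had in the family's level was not tested.

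Set side by side against CIA_B, the median log2 fold change of the 4 tested members was 4.78 in MS_E, 1.36 in PLA_E, 1.38 in MS_A and 2.18 in PLA_A, when that of all 359 miRNAs was 0.06, 0.07, 0.10 and 0.11. Each median fell when the library of its group with more of the family was left out. It was 1.92 without MS_E replicate 1, -0.06 without PLA_E replicate 1, 1.11 without MS_A replicate 2 and 1.03 without PLA_A replicate 1. The 1.92 of MS_E was under the 2.18 of PLA_A with both its libraries, but above the 1.03 of PLA_A without replicate 1. The medians describe members that passed a filter on level and carry no test.

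With the 4 groups after therapy averaged on the log scale, miR-200b-3p and miR-200c-3p were called higher than in CIA_B, each with an adjusted p of 0.932 in edgeR, when 4.18% of miRNAs were called in either direction and 2.51% as higher. Each had 1 read over both CIA_B libraries. Both passed the filter through libraries after therapy alone, which favours a call as higher. miR-141-3p had a log2 fold change of 2.37 (SE 1.32) and miR-200a-3p of 1.30 (SE 1.15), neither of which passed. miR-200b-3p and miR-141-3p were above both CIA_B libraries in 8 of 8 libraries after therapy, as were 3.34% of the miRNAs tested. miR-200c-3p and miR-429 were above them in 7 libraries and miR-200a-3p in 4. For miR-200b-3p and miR-429 only MS_E replicate 1 was above the 2.60 cpm that 3 reads make in CIA_B replicate 1. With each library left out, the log2 fold change was 1.87 to 3.04 for miR-200b-3p and 2.42 to 3.50 for miR-200c-3p, so its direction held. The calls rested on many libraries. Without either CIA_B library or without PLA_E replicate 1 there were 0, without MS_E replicate 1, either MS_A library or either PLA_A library there was 1, and without MS_E replicate 2 there were 3. Of the markers of other cells, the leukocyte miR-142-3p and miR-223-3p were called higher and the slow fibre miR-208b-3p and miR-499-5p lower. In the fits with a library left out 0.836% (without CIA_B replicate 1) to 5.57% (without MS_E replicate 2) of all miRNAs were called.

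At 34 days no tested member was called between MS_A and PLA_A (background 1.95%). miR-141-3p had a value of -1.69 on the log2 scale (SE 1.35, with an adjusted p = 0.999 in edgeR). Both PLA_A libraries were above both of MS_A for it, as for 12.5% of all miRNAs tested, and no member had both MS_A libraries above PLA_A, as 7.52% of all miRNAs did. For miR-141-3p this order is the reverse of the order that MS_E replicate 1 gave at 1 h. miR-141-3p was called as lower in MS_A without either MS_E replicate 1 or MS_E replicate 2 (-1.64 and -1.69, each with an adjusted p of 0.999 in edgeR), when 1.95% and 2.23% of all miRNAs were called. With all libraries, the leukocyte markers miR-142-3p (-4.25) and miR-142-5p (-3.71) were called lower in MS_A than in PLA_A, and their part in the level of miR-141-3p was not tested. The log2 fold changes of the other 3 were 0.07 for miR-200a-3p, 0.08 for miR-200b-3p and -0.90 for miR-200c-3p, with standard errors of 1.14, 1.27 and 1.48, and their libraries overlapped. The signs of miR-200a-3p, miR-200b-3p and miR-200c-3p were not stable when MS_A replicate 2 (-1.55 and -0.34 for the former pair) or PLA_A replicate 1 (1.89 for miR-200c-3p) was left out.

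Whether the difference between stimulation and placebo itself changed from 1 h to 34 days was tested as an interaction. miR-141-3p was called, with a change of -6.31 on the log2 scale (SE 2.00, with an adjusted p = 0.993 in edgeR), against 3.34% of miRNAs in either direction. The other 3 tested members had values from -3.21 to -2.28 with the same adjusted p, and none was called. Markers of other cells were called in the same direction, namely both tested multiciliated markers (miR-34c-5p, -6.25, and miR-449a-5p, -5.67), the epithelial miR-375-3p (-6.44) and the leukocyte miR-142-5p (-3.58), of which miR-142-5p alone was also called without MS_E replicate 1. Their part in the value of miR-141-3p was not tested. No member was called without MS_E replicate 1 (0.836% of all miRNAs), and the value of miR-141-3p was -1.32 (SE 1.06). Without MS_E replicate 2, PLA_E replicate 1 or MS_A replicate 2 there were 2 calls (4.74, 3.62 and 2.23% of all miRNAs), and without MS_E replicate 2 miR-141-3p had an adjusted p of 0.0101 in edgeR.

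The make-up of the family differed between libraries as well. miR-141-3p gave 71.0% of the 2007 family reads in MS_E replicate 1 (95% Wilson interval 69.0 to 72.9%, counting error only) and 19.0% of 116 reads in MS_E replicate 2 (12.9 to 27.0%). The members with the miR-200b seed (miR-200b-3p, miR-200c-3p and miR-429) together took 19.98% (18.3 to 21.8%) and 42.2% (33.6 to 51.3%) of the reads of these libraries. The other libraries with at least 50 family reads lay between, at 24.7% in PLA_A replicate 2, 25.9% in PLA_A replicate 1, 36.2% in MS_A replicate 2 and 39.5% in PLA_E replicate 1. The 2 libraries of MS_E thus stood at the ends of this range.

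**Figure D3:**
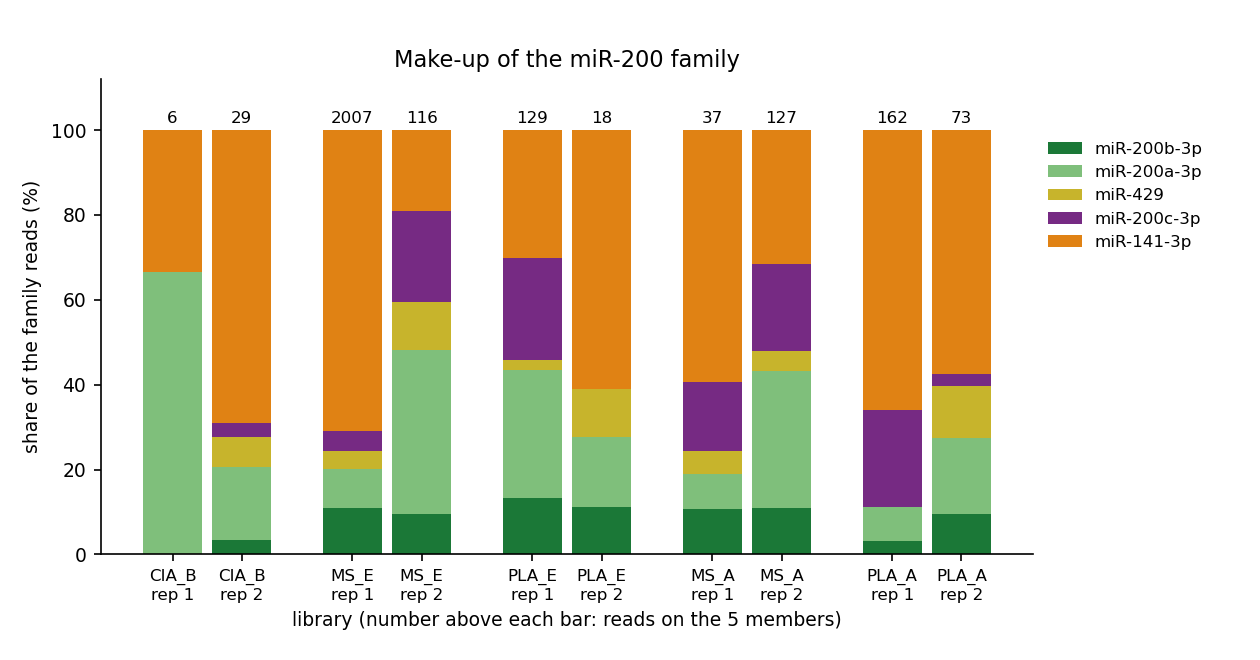
Share of each main arm among the family reads of a library, in percent, with the number of those reads above each bar. miR-141-3p takes 71.0% in MS_E replicate 1 and 19.0% in MS_E replicate 2, and the bar of CIA_B replicate 1 rests on 6 reads.

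Within each cluster the proportion of members differed between libraries rich and poor in miR-1-3p, with 1 exception in the cluster of miR-141. Of the reads of miR-200b, miR-200a and miR-429 together, miR-200a-3p took 65.2 to 100% in the 5 libraries rich in miR-1-3p and 33.3 to 62.5% in the 5 poor in it. In MS_E replicate 1 it was 37.2% of 487 reads (33.0 to 41.5%), against 65.2% of 69 reads in MS_E replicate 2 (53.4 to 75.4%), and their intervals were apart. For the remaining groups the shares rest on 4 to 61 reads. The lowest share among the rich libraries and the highest among the poor, 65.2 and 62.5%, differ by less than counting error, the latter being 5 of 8 reads in CIA_B replicate 2.

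Of the reads of miR-200c and miR-141 together, miR-141-3p took 93.8% of 1520 in MS_E replicate 1 (92.4 to 94.9%) and 46.8% of 47 in MS_E replicate 2 (33.3 to 60.8%). It took 100% of 11 reads in PLA_E replicate 2 and 55.7% of 70 in PLA_E replicate 1, 78.6% of 28 in MS_A replicate 1 and 60.6% of 66 in MS_A replicate 2, and 95.5% of 44 in PLA_A replicate 2 and 74.3% of 144 in PLA_A replicate 1. In these 4 groups the library poor in miR-1-3p had the higher share. CIA_B replicate 2, also poor in it, had 95.2% of 21 reads, and CIA_B replicate 1 held 2 reads of the cluster, both miR-141-3p. Over all 10 libraries the share was 46.8 to 100% in those rich in miR-1-3p and 78.6 to 100% in those poor in it, and the overlap came from CIA_B replicate 1, the exception. Apart from that library, the highest share among the rich, 74.3% (66.6 to 80.7%), and the lowest among the poor, 78.6% (60.5 to 89.8%), differed by less than counting error. The division of the libraries is not one that the labels give, and it was made on miR-1-3p, not on the family, so the shares are a description with no test.

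**Figure D4:**
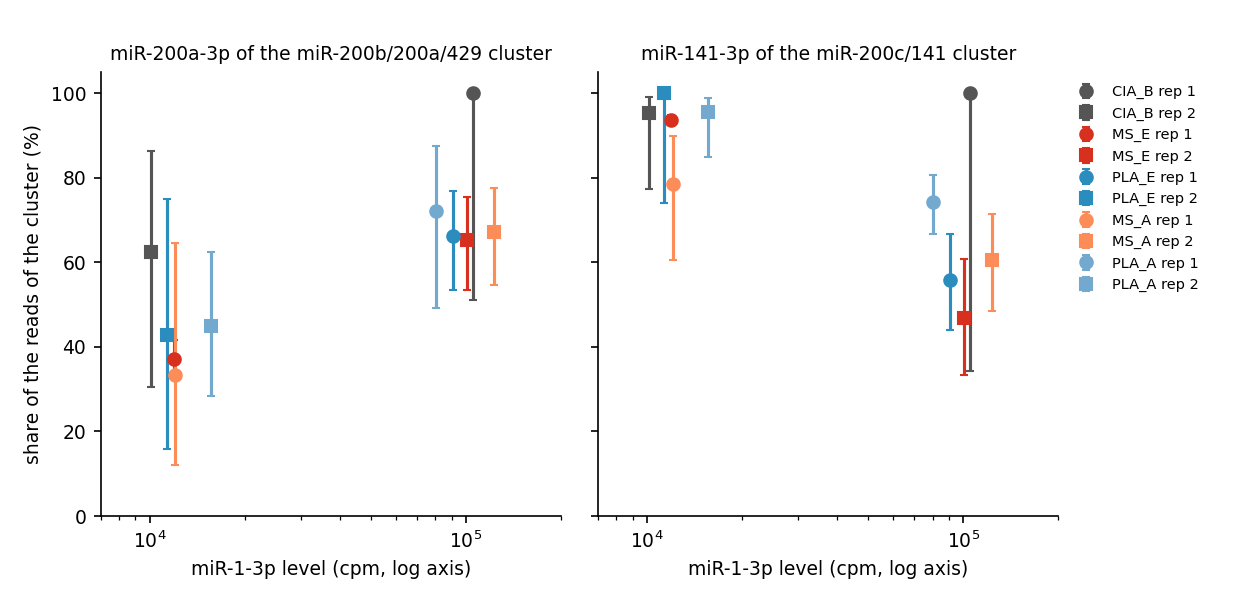
Share of miR-200a-3p in the reads of its cluster (left) and of miR-141-3p in the reads of its cluster (right), in percent with 95% Wilson intervals, against the miR-1-3p level of the library on a log axis. The 5 libraries on the left side of each panel hold 10115 to 15564 cpm of miR-1-3p, with miR-200a-3p shares of at most 62.5%, and the 5 on the right hold 80400 cpm or more, with shares of at least 65.2%.

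Across the 10 libraries the members varied together, as log2(cpm + 1). Pearson's r was 0.76 to 0.91 for the 4 pairs of a shared cluster and 0.52 to 0.90 for the 6 pairs of different clusters, values that share library scaling and the 1 extreme library. Without MS_E replicate 1 they were 0.28 to 0.69 and -0.13 to 0.76. The 5 tested miRNAs most like the summed family over the 10 libraries were miR-130b-3p (r = 0.89, Spearman's rho = 0.87), miR-449a-5p (0.88 and 0.60), miR-19a-3p (0.87 and 0.83), miR-375-3p (0.84 and 0.44) and let-7i-3p (0.81 and 0.88). All of these were highest in MS_E replicate 1. Over the 9 libraries without it the list shared 0 of 5 names and was led by miR-142-3p (r = 0.95, rho = 0.87), a miRNA of blood cells, followed by miR-339-5p, miR-29a-5p, miR-140-5p and miR-345-5p, all highest in PLA_A replicate 1.

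Of the marker lists, the summed 5 leukocyte markers ranked the libraries most like the family did. Spearman's rho with the summed family was 0.96 over the 10 libraries (r = 0.54) and r was 0.85 over the 9 without MS_E replicate 1. The markers of CIA_B, at 1638 to 1648 cpm, were the lowest, as the family was near its lowest there, and those of MS_E were at 3054 to 3401 cpm, PLA_E at 1975 to 2692 cpm and MS_A at 2434 to 2619 cpm. In MS_E replicate 1 most of the sum was miR-146a-5p (2815 cpm), the only one of the 5 markers that was highest in that library. There miR-142-3p was at 8.95 cpm, miR-142-5p at 257 cpm, miR-223-3p at 64.7 cpm and miR-150-5p at 256 cpm, its lowest level. For the other lists rho was -0.079 for the epithelial, 0.13 for the multiciliated, 0.15 for the skeletal muscle, -0.32 for the slow fibre and 0.71 for the erythroid markers. The largest part of the epithelial sum was miR-182 in every library. By r over the 10 libraries, which gives weight to MS_E replicate 1, the multiciliated (0.84) and erythroid markers (0.77) were above the leukocyte markers, and the epithelial (0.23), skeletal muscle (-0.29) and slow fibre markers (-0.43) below. Without that library r was 0.25, 0.63, -0.26, 0.49 and 0.021 for these 5 lists in the same order. These values share the scaling of each library and describe 10 points, and the part of leukocytes in the family's level was not tested.

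Called members of these lists in MS_E against CIA_B were 2 of 2 tested multiciliated markers (miR-34c-5p and miR-449a-5p) and 1 of 5 tested epithelial markers (miR-375-3p), all higher, 1 of 5 leukocyte markers (miR-223-3p) and 1 of 2 erythroid markers (miR-451-5p), also higher, 0 of 4 skeletal muscle markers, and both slow fibre markers (miR-208b-3p and miR-499-5p), lower, when 6.41% of all miRNAs tested were called. In MS_E against PLA_E the 2 multiciliated markers were called as higher and none of the other lists' markers were, when 3.90% of all were called. The levels of miR-34c-5p, miR-449a-5p and miR-375-3p in MS_E replicate 1 are those given above. Without that library only miR-223-3p, higher, and miR-499-5p, lower, were called against CIA_B, when 4.46% of all miRNAs were, and against PLA_E miR-375-3p alone, as lower, when 1.95% were.

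**Figure D5:**
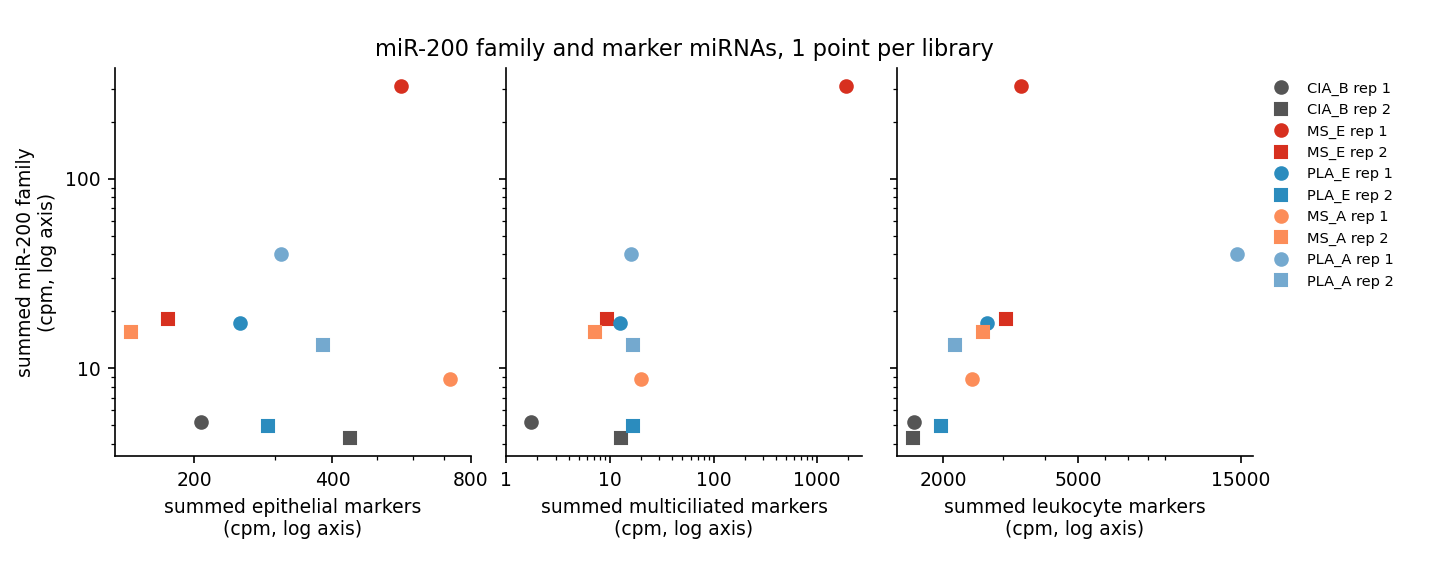
Summed level of the 5 family members (vertical) against the summed level of the epithelial, multiciliated and leukocyte markers (horizontal), in cpm on log axes, with 1 point per library. MS_E replicate 1 stands alone in the multiciliated panel at 1895 cpm, and the family nearly follows the order of the libraries in the leukocyte panel, where PLA_A replicate 1 lies far to the right at 14583 cpm. Most of the leukocyte sum of MS_E replicate 1 is miR-146a-5p (2815 cpm).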

How the data were processed

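Small RNA libraries (TruSeq kit, Illumina HiSeq) of 10 tissue samples were used. Per the methods and labels, the authors demultiplexed with CASAVA 1.8, trimmed 3' adapters, discarded reads under 18 bases, aligned with mapper.pl of miRDeep2 (Bowtie) to rn4 and to rat miRBase 18, and counted with quantifier.pl. The deposited values are raw read counts per mature miRNA and precursor. A series table was left out, as its 20 value columns carry names found in no label. The largest count over precursors was taken; each family arm has 1 precursor.

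edgeR 4.0.16 (R 4.3.3) scaled these counts by TMM and ran the quasi-likelihood test (prior count 2) over the 359 miRNAs that reached 1 cpm in 5 or more libraries, all 10 libraries in 1 fit with a mean per group. Adjusted p-values are Benjamini-Hochberg over all 359. Alternatives were limma-voom 3.58.1 (the tool of the study), DESeq2 1.42.0, its size factors, library size only, other filters, the 4 libraries compared alone, a replicate block, a term for the division by miR-1-3p, summed precursors and each library left out. Members, marker lists and tests were chosen with earlier results of these data known. The members were set by name, and the other miRNAs named are the marker lists and the 5 most correlated with the family sum. Marker miRNAs miR-155-5p and miR-486 were not analysed here. Counts were divided by group from the sample titles. The fit was also run on simulated counts as a check of the code, and no result of that run is used here. Intervals are Wilson for shares and exact for ratios of pooled reads, at 95%, and cover counting error only, as reads of 1 molecule repeat. Figures were made with Python 3.11.15 and matplotlib 3.10.9, and scipy 1.17.1 gave the intervals.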

Additional observations from a re-analysis of the deposited data

Results flagged for a closer look

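The change of the difference between stimulation and placebo from 1 h to 34 days was itself past the thresholds of the study for miR-141-3p. The difference at 34 days minus that at 1 h was -6.31 on the log2 scale (SE 2.00, with an adjusted p = 0.993 in edgeR), so it did not pass the adjustment over all miRNAs. It was -1.32 without MS_E replicate 1, the library that held 220.0 cpm, and -7.28 without MS_E replicate 2. Of the 4 libraries under stimulation that 1 stood above all those under placebo.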

How the results depend on the processing

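Of 603 alternative fold changes of the members, 586 kept their direction and 17 turned. Shares in parentheses are of all miRNAs called in the same fit. In MS_E against CIA_B 1 of 1 tested member was called with a mean of at least 100 counts (10.3%), and 5 of 5 without a filter (6.56%) and with only the 4 libraries compared (6.39%). In PLA_E and in MS_A against CIA_B the calls were 1 each in DESeq2 (1.39 and 1.67%), and in PLA_A against CIA_B 2 in DESeq2 (9.75%), 1 with library size only (6.41%), 1 of 5 without a filter (4.66%) and 2 of 3 with only the 4 libraries compared (7.97%). In MS_E against PLA_E they were 0 in limma-voom (2.51%), 4 of 5 without a filter (5.01%) and 1 of 1 with a mean of at least 100 counts (4.35%). After therapy they were 0 in limma-voom (2.79%), 1 with DESeq2's size factors (3.90%), 0 of 1 with a mean of at least 100 counts (7 of 184 miRNAs) and 1 with the division by miR-1-3p as a term (5.01%). In the interaction they were 0 in limma-voom (1.11%) and 2 of 5 without a filter (2.59%). The summed level of CIA_B replicate 1 was 3.96 with library size only. That scaling moved the median of all miRNAs by up to 0.36 (PLA_E against CIA_B) and by -0.30 in MS_A against PLA_A. With each of the 10 libraries left out, calls ranged from 1 to 4 in MS_E (4.46 to 8.91%), 0 to 1 in PLA_E (0.279 to 2.51%), 0 to 1 in MS_A (0.557 to 1.95%) and 0 to 3 in PLA_A (2.51 to 9.19%), each against CIA_B, 0 to 3 in MS_E against PLA_E (1.95 to 9.75%), 0 to 1 in MS_A against PLA_A (0.557 to 3.90%), 0 to 3 after therapy (0.836 to 5.57%) and 0 to 2 in the interaction (0.836 to 4.74%).

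In MS_A against PLA_A, miR-200a-3p turned to -0.22 in limma-voom, -0.028 with library size only and -0.11 with the division as a term, miR-200b-3p to -0.081 with library size only, and miR-200c-3p to 0.41 in limma-voom. The turns with library size only are smaller than the shift of -0.30 that this scaling gave all miRNAs, so they say nothing of these members. Leaving out single libraries gave ranges there of -1.55 to 0.82, -0.34 to 0.39 and -1.71 to 1.89 for these 3. Against CIA_B the ranges were -0.77 to 1.65 (miR-200a-3p) and -0.37 to 3.25 (miR-200c-3p) in PLA_E, and for miR-200a-3p -0.93 to 1.57 in MS_A and -0.28 to 1.46 in PLA_A. miR-141-3p in MS_E against PLA_E ranged from -0.32 to 5.59. The causes were not tested.

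The replicate numbers did not pair the libraries (correlations of deviations from -0.55 to 0.63). The correlations were 0.28 to 0.63 between groups whose replicate 1 was on the same side of the division by miR-1-3p. Between the others they were -0.55 to -0.28. With the replicate block the calls were 4, 0, 0 and 0 against CIA_B in MS_E, PLA_E, MS_A and PLA_A (5.85, 0.279, 0.836 and 5.85%), 2 in MS_E against PLA_E (3.34%), 0 in MS_A against PLA_A (1.11%), 2 after therapy (3.62%) and 1 in the interaction (1.95%), and miR-200c-3p in MS_A against PLA_A was 0.061. The fit on the 4 libraries alone was not run for the interaction and the mean after therapy. CIA_B replicate 1 is the shallowest library and limits what its low reads can show.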
